A study of Mus musculus with 8 samples.

Results

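Dnd1-KD mouse embryonic stem (ES) cells were compared with control ES cells across all genes. The comparison holds 4 of the 8 RNA-seq libraries of the study, chosen by their labels: 2 of control cells and 2 of Dnd1-KD cells. The control cells are of the ES cell line E14tg2a, and the Dnd1-KD cells carry the same labels for strain (129/Ola), genotype (WT) and passage (10 to 12), so knockdown of Dnd1 is the labelled difference between the groups. Both were grown in DMEM with serum and LIF, the cytokine that holds mouse ES cells undifferentiated. Whether each group is 1 clone or a pool, and how Dnd1 was knocked down, is not given in the sources used here. The other 4 libraries, of pluripotent lines named CDGC1 and CDGC6 that arose from teratoma cells of Dnd1-deficient mice, entered the filter on low values and the shared estimate of spread between duplicates.

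DND1 is an RNA-binding protein of the vertebrate germ line that binds the untranslated ends of messenger RNAs, and mice without it lose germ cells and develop testicular teratomas. Among the pathways described here, the unfolded protein response raises chaperones when unfolded proteins collect in the endoplasmic reticulum (ER), and the integrated stress response acts through the transcription factors ATF4 and CHOP when translation initiation is held back. WNT and FGF signals both reach ES cells, where T and Sp5 are WNT targets and Etv5 and Spry4 are FGF targets.

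Expression is given in FPKM, a level per unit of transcript length and of sequencing depth, for each library in the order replicate 1 and replicate 2. A difference is Dnd1-KD minus control on the scale of log2(FPKM + 1) with its standard error from limma, which understates the change of genes near or below 1 FPKM. Rose, fell, higher and lower are used of a gene only where the Benjamini-Hochberg adjusted p of limma was under 0.05. Genes whose loci share 1 deposited entry have 1 joint value. Counts with 1 library left out are given in the order first control, second control, first Dnd1-KD and second Dnd1-KD library. The labels do not say whether duplicates are separate cultures, and the p-values therefore reflect only how much duplicate libraries differed, which may be technical.

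The targeted gene has no value of its own. Dnd1 shares its entry with Hars, the histidyl-tRNA synthetase. This joint entry stood at 65.8 and 65.0 FPKM in the control libraries and 57.6 and 53.9 in the Dnd1-KD libraries. The difference of -0.23 ± 0.08 did not pass the test (adjusted p = 0.0728), and it does not measure Dnd1 alone. The groups did not overlap, as in 79.6% of all tested units.

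The ES cell label was checked against 14 markers. The 14 summed to 4571 and 4833 FPKM in control and to 2975 and 2213 in Dnd1-KD, with Pou5f1 at 944 and 934 and then 531 and 457. Markers of other cell types were summed in the same way. Those of fibroblasts or feeder cells summed to 15.6 and 17.3 in control and 21.4 and 20.9 in Dnd1-KD. Those of extraembryonic endoderm summed to 35.2 and 35.7 against 59.0 and 49.4, and those of mesoderm to 31.8 and 38.1 against 20.6 and 20.9. Of the listed markers, 10 of 14 for fibroblasts passed the filter on low values (2 higher, 0 lower; 0, 0, 0 and 0 higher with 1 library left out), 5 of 16 for endoderm (4 higher, 0 lower; 1, 1, 1 and 2 higher) and 8 of 13 for mesoderm (3 higher, 1 lower; 1, 1, 2 and 1 higher). The fall of the mesoderm sum is that of 1 gene, T, from 18.1 and 23.7 to 1.63 and 1.79, and the other 12 markers summed to 13.7 and 14.4 in control and 18.9 and 19.1 in Dnd1-KD. Of 11 leukocyte markers, 2 units passed the filter, one of them a joint unit with the abundant Eif4a1. Trophoblast markers spanned overlapping ranges, and the neural sum was lower in both Dnd1-KD libraries than in either control library. In bulk RNA, fewer cells of a type and less RNA per cell cannot be told apart.

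Of 11890 genes or joint units tested, 4308 (36.2%) passed the test: 2463 (20.7%) were higher and 1845 (15.5%) lower in Dnd1-KD. Most changes were small. At least 2-fold changes were seen in 363 of the higher and 186 of the lower units. The median difference over all tested units was 0.02. The count rests on both controls and on the second Dnd1-KD library: 1365 units passed without the first control library, 1627 without the second, 1934 without the second Dnd1-KD library and 3218 without the first, each time with the lone library assumed to vary like the other groups.

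**Figure D1:**
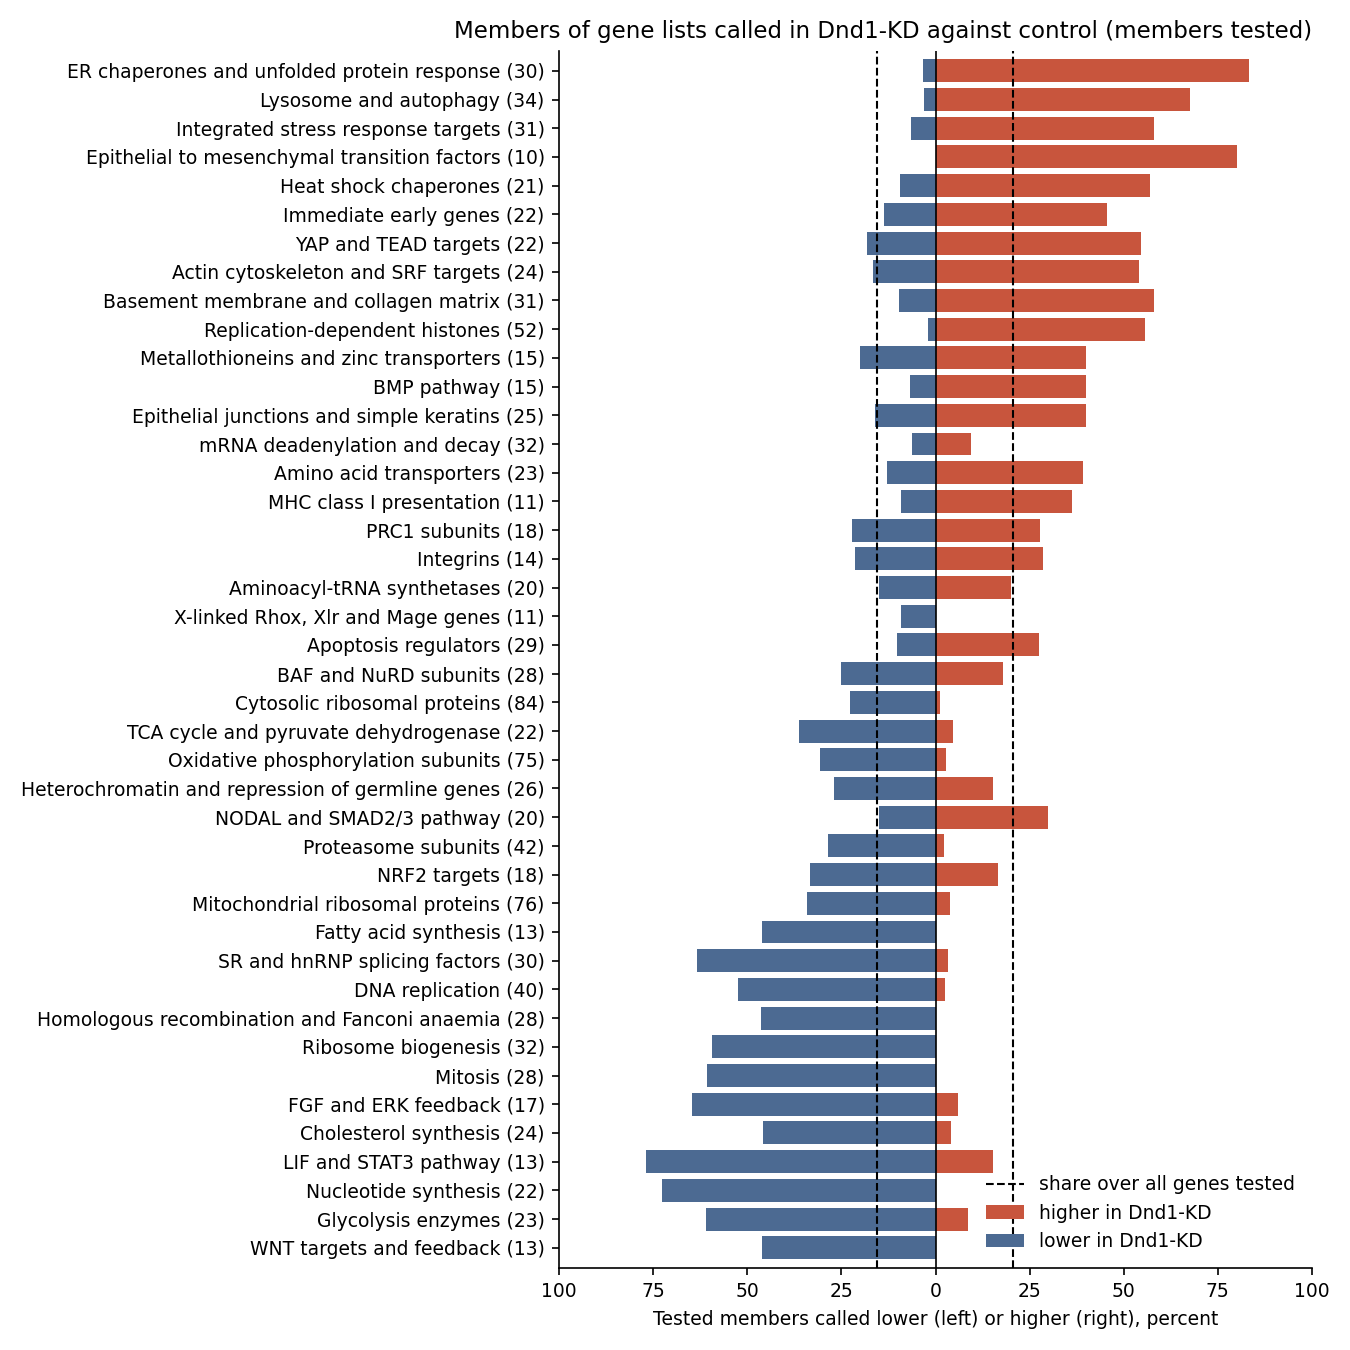
Share of tested members called higher (bars to the right) or lower (bars to the left) in Dnd1-KD, in percent, for each gene list with at least 10 tested members, cell type markers left out, with the number tested in brackets and dashed lines at the shares over all tested units (20.7% and 15.5%). ER chaperones, EMT factors and lysosome genes have the longest bars to the right, and LIF pathway, nucleotide synthesis and FGF feedback genes are among the longest to the left.

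ER chaperones and unfolded protein response genes were higher almost throughout the list. Of 30 listed and tested, 25 were higher and 1 lower, with a median of 0.76. Leaving out 1 library gave 11, 17, 23 and 15 higher. Part of the pathway is shown by sequence, because these promoters carry the ER stress element, the composite site bound by NF-Y and ATF6: CCAAT, 9 bases of any kind, then CCACG, searched on both strands. The 250 bases before the RefSeq start (GRCm38.p6) are printed 5′ to 3′ on the gene's strand, with each match in capitals. Hspa5 lies at chr2:34771840-34772089 (+), Dnajc3 at chr14:118937682-118937931 (+), Hsp90b1 at chr10:86705445-86705694 (−) and Creld2 at chr15:88819396-88819645 (+).
Hspa5: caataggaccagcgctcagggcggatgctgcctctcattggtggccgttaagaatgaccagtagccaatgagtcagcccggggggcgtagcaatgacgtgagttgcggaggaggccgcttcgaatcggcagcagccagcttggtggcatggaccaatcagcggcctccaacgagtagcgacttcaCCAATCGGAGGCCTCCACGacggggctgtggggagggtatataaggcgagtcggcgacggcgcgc
Dnajc3: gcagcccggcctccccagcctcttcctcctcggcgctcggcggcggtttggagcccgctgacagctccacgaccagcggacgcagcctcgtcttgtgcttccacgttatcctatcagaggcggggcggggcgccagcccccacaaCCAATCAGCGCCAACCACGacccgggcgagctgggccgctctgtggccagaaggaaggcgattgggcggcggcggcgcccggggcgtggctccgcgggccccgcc
Hsp90b1: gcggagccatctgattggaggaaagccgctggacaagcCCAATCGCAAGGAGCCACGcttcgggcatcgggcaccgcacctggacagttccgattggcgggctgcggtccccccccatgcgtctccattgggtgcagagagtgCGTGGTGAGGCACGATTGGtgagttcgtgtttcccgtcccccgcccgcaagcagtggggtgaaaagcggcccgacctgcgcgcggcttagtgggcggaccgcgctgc
Creld2: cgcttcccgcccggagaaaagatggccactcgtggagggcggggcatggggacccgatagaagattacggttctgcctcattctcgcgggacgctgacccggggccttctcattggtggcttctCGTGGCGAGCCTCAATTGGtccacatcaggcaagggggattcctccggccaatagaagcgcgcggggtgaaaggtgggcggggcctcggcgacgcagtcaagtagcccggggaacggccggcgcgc
The search ran from 250 bases before to 50 bases after each start. At least 1 promoter with a match was found for 37 of 27025 RefSeq genes (0.137%). Of the 24 tested list members with a promoter entry, 9 (37.5%) held one. They were Hspa5, Dnajc3, Hsp90b1, Creld2, Canx, Pdia6, Syvn1 and the joint unit of Calr, all higher, and Derl3, which did not pass the test. The share was 40.0% among the 20 members called higher and 33.3% among the 3 not called. A match describes the sequence and is not evidence of binding.

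By role, the ER chaperones led in abundance. Hspa5, the HSP70 chaperone BiP whose promoter is printed above, stood at 357 and 377 FPKM in control and 799 and 1048 in Dnd1-KD (difference 1.32 ± 0.16, adjusted p = 0.00319). Hyou1, a large chaperone that exchanges nucleotide on BiP, stood at 55.7 and 59.8 against 104 and 124 (0.96 ± 0.10, adjusted p = 0.00219). The disulphide isomerase Pdia3 went from 254 and 278 to 435 and 543 (0.87 ± 0.11, adjusted p = 0.00331). In each of these the second Dnd1-KD library was the highest. The groups did not overlap, which was so for all 4308 called units and for 79.6% of all tested units.

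Of the co-chaperones of the HSP40 family, which cover more than the ER, 6 of 10 units with the symbol stem Dnajb were higher and 0 lower. With the stem Dnajc 5 of 25 were higher and 4 lower. These Dnajc shares are near those over all tested units, 20.7% higher and 15.5% lower. Dnajb9 (ERdj4), a target of the XBP1 branch, stood at 9.61 and 10.99 FPKM in control and 35.5 and 49.5 in Dnd1-KD (1.93 ± 0.17, adjusted p = 0.00148), a ratio of means of 4.13. Dnajc3, which encodes an inhibitor of the eIF2 kinases, stood at 11.2 and 12.1 against 26.8 and 35.3 (1.33 ± 0.16, adjusted p = 0.00285). The list also holds genes of ER-associated degradation, of which Derl3 did not pass the test (0.18 ± 0.24). Derl1, of the retrotranslocation channel, went from 18.8 and 19.0 to 31.5 and 36.7 (0.82 ± 0.09, adjusted p = 0.00239), and Edem1, which extracts misfolded glycoproteins, from 10.7 and 11.1 to 19.4 and 23.0 (0.90 ± 0.13, adjusted p = 0.00472). Their ubiquitin ligase Syvn1 (HRD1) is at 21.9 and 25.9 in Dnd1-KD, and both control values are listed at 0, a kind of value whose limits are given below. The sensors had smaller differences, of 0.62 ± 0.12 for Eif2ak3 (PERK), 0.59 ± 0.10 for Atf6 and 0.46 ± 0.13 for Ern1 (IRE1). The call of Eif2ak3 was lost without the first control, the second control or the second Dnd1-KD library, that of Atf6 without the first control or the second control library and that of Ern1 without any 1 of the 4 libraries. The member that fell, Ssr1, a subunit of the translocon-associated complex, is taken up below with the widths of the file intervals.

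**Figure D2:**
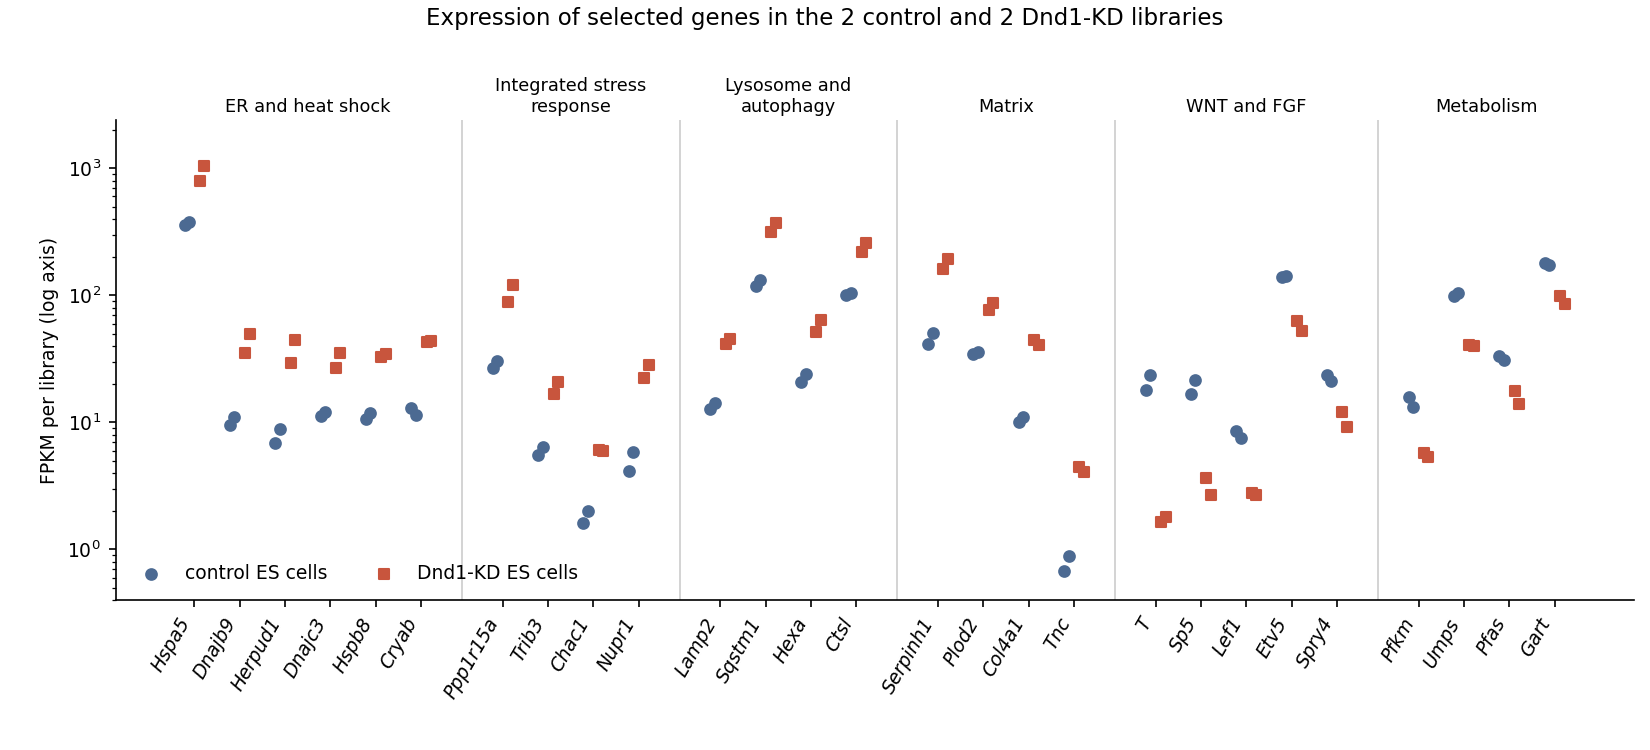
FPKM on a log axis for selected genes in the control (circles) and Dnd1-KD libraries (squares), grouped by pathway, each point 1 library. The stress, lysosome and matrix genes shown lie above control and the WNT, FGF and metabolism genes below it. Control and Dnd1-KD points do not overlap, as for every called unit and for 79.6% of all tested units.

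Integrated stress response targets rose in part. Of 33 listed, 31 were tested, and 18 were higher and 2 lower (median 0.64), with 9, 11, 16 and 9 higher when 1 library was left out. Ddit3 and Atf5, listed at 0 in both control libraries, are among the higher ones. Both overlap another gene and are also listed at 0 in the CDGC1 and CDGC6 libraries, so these zeros can be failed estimates. Ppp1r15a (GADD34), the phosphatase subunit that ends the response, stood at 26.8 and 30.5 FPKM in control and 88.4 and 120.4 in Dnd1-KD (1.82 ± 0.25, adjusted p = 0.00425). Trib3, a pseudokinase that CHOP induces, stood at 5.50 and 6.39 against 16.7 and 20.9 (1.505 ± 0.23, adjusted p = 0.00575), and the transcription factor Atf3 at 4.42 and 5.12 against 14.0 and 18.9 (1.59 ± 0.23, adjusted p = 0.00474). Gdf15, a secreted stress cytokine, was low throughout, at 0.757 and 0.777 and then 2.70 and 2.86 (1.10 ± 0.10, adjusted p = 0.0015). All of these had their highest value in the second Dnd1-KD library.

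The amino acid side of the same list was split. The heavy chain Slc3a2 of the large neutral amino acid transporters rose from 73.4 and 77.1 to 155 and 201 (1.22 ± 0.15, adjusted p = 0.00325), and the arginine transporter Slc7a1 from 6.82 and 7.12 to 13.7 and 15.4 (0.96 ± 0.14, adjusted p = 0.0044). The biosynthetic targets did not pass the test: asparagine synthetase Asns differed by 0.14 ± 0.09 (adjusted p = 0.256), Psat1 by 0.01 ± 0.10 (adjusted p = 0.974) and Phgdh by -0.12 ± 0.07 (adjusted p = 0.219). Xpot, which exports tRNA from the nucleus, fell from 57.1 and 57.8 to 37.6 and 38.3 (-0.59 ± 0.08, adjusted p = 0.00362). The C/EBP-ATF response element, TGATG, then any base, then AA, on either strand, was searched from 250 bases before to 50 after the start. It was found in 8 of the 27 tested members with a promoter entry (29.6%) and in 1219 of 27025 genes (4.51%). Its share was 27.8% among the members called higher and 37.5% among those not called. Chac1, a glutathione-degrading enzyme at chr2:119350992-119351241 (+), and the stress protein Nupr1 at chr7:126625471-126625720 (−) are shown, as both hold the element and both rose.
Chac1: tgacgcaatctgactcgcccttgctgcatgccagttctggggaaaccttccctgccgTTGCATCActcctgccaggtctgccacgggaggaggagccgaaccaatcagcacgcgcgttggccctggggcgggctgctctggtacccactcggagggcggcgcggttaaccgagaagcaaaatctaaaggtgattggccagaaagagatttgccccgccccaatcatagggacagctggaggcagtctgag
Nupr1: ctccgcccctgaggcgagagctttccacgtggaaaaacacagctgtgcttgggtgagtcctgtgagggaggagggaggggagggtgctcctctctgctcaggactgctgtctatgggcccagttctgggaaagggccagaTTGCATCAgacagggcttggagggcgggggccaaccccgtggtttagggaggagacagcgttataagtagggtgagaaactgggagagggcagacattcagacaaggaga
Nupr1 stood at 4.16 and 5.89 FPKM in control and 22.4 and 28.1 in Dnd1-KD (2.13 ± 0.37, adjusted p = 0.00827), and Chac1 at 1.61 and 1.998 against 6.11 and 5.95 (1.33 ± 0.26, adjusted p = 0.0112). Nupr1 lost its call without the first control or the second Dnd1-KD library, and so did Chac1 without the first control or the second Dnd1-KD library.

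Cytosolic heat shock chaperones were the third stress group. Of 21 units tested, 12 were higher and 2 lower (median 0.53), and 8, 10, 12 and 9 were higher with 1 library left out. Beside the joint unit of Hspa1a and Hspa1b, the largest changes were of small heat shock proteins. Hspb8, which works with BAG3 in selective autophagy, stood at 10.7 and 11.8 FPKM in control and 32.9 and 34.4 in Dnd1-KD (1.504 ± 0.11, adjusted p = 0.000882). Cryab, the alpha-B-crystallin chaperone, stood at 12.9 and 11.5 against 42.7 and 43.7 (1.75 ± 0.21, adjusted p = 0.00283), and Bag3 itself at 10.9 and 11.7 against 23.7 and 28.8 (1.14 ± 0.16, adjusted p = 0.00399). The constitutive chaperone Hspa8 was the most abundant member, at 3970.0 and 4167 and 5705 and 6095 (0.54 ± 0.07, adjusted p = 0.00384; a call lost under quantile normalization), and the HSP90 genes did not pass the test (Hsp90aa1 0.10 ± 0.06, Hsp90ab1 -0.00 ± 0.08). The mitochondrial chaperone Hspd1 fell by 0.42 on the log2 scale, from 598 and 581 to 463 and 416 (adjusted p = 0.0118), a call lost without the first control, the second control or the second Dnd1-KD library.

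Immediate early genes, which growth factors and stress induce within minutes, had calls in both directions. Of 22 tested, 10 were higher and 3 lower (median 0.49), with 8, 8, 9 and 7 higher when 1 library was left out. Jun stood at 10.9 and 12.9 FPKM in control and 36.5 and 40.4 in Dnd1-KD (1.62 ± 0.15, adjusted p = 0.00165). Ier5 stood at 3.68 and 4.27 against 12.4 and 14.3 (1.53 ± 0.13, adjusted p = 0.00124), and the antiproliferative gene Btg2 at 17.3 and 17.2 against 32.5 and 31.3 (0.85 ± 0.09, adjusted p = 0.00195). Ier2, the most abundant member, fell from 78.3 and 84.7 to 59.9 and 49.2 (-0.58 ± 0.10, adjusted p = 0.00959), a call lost without the second control library. Egr1, a direct target of ERK signalling, differed by -1.01 ± 0.36 and did not pass (adjusted p = 0.0712). Myc fell from 40.5 and 40.8 to 26.3 and 23.5 (-0.69 ± 0.15, adjusted p = 0.0172), a call lost without the first control, the second control or the second Dnd1-KD library.

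Targets of NRF2, the oxidative stress factor, did not rise together: of 18 tested, 3 were higher and 6 lower (median -0.22). Heme oxygenase Hmox1, which other stress factors also induce, had the largest of the rises, at 58.6 and 52.1 FPKM in control and 153 and 169 in Dnd1-KD (1.53 ± 0.12, adjusted p = 0.00109). The other rises were of malic enzyme Me1 (0.44 ± 0.08) and the ferritin light chain Ftl1 (0.24 ± 0.06). The call of Me1 was lost without the first control, the second control or the second Dnd1-KD library. That of Ftl1 was lost without any 1 of the 4 libraries. The 6 lower members included peroxiredoxin Prdx1 (-0.67 ± 0.15, lost without the first control or the second Dnd1-KD library) and the pentose phosphate enzyme Tkt (-0.67 ± 0.18, lost without any 1 of the 4 libraries). Leaving out 1 library gave 0, 1, 6 and 1 lower. Among metallothioneins, which bind zinc and copper, Mt2 rose from 298 and 271 to 744 and 758 (1.40 ± 0.21, adjusted p = 0.00561), whereas Mt1 differed by 0.38 ± 0.22 (adjusted p = 0.212). The zinc importer Slc39a10 fell from 28.5 and 26.3 to 14.2 and 11.3 (-1.05 ± 0.14, adjusted p = 0.00393). Apoptosis regulators had a median of -0.07, with 8 of 29 higher and 3 lower and 1, 1, 5 and 1 higher with 1 library left out. Targets of p53 in the list differed. The death receptor gene Tnfrsf10b rose from 16.5 and 16.5 to 33.1 and 37.1 (1.04 ± 0.10, adjusted p = 0.00186), and Fas and Apaf1 were higher by 0.97 ± 0.17 and 0.60 ± 0.11, calls lost without the first control, the second control or the second Dnd1-KD library, while Bax, Bbc3 and Pmaip1 did not pass the test. Outside the list, 3 further p53 targets were higher: the CDK inhibitor Cdkn1a (p21) went from 26.8 and 28.7 to 79.8 and 92.8 (adjusted p = 0.00183), the p53 ubiquitin ligase Mdm2 differed by 1.25 ± 0.10 and the cyclin Ccng1 by 1.07 ± 0.14. They were named after their values were seen.

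Lysosome and autophagy genes were also higher in most of the list. Of 34 tested, 23 were higher and 1 lower (median 0.64), and with 1 library left out 15, 15, 18 and 17 were higher. The membrane protein Lamp2 stood at 12.7 and 14.2 FPKM in control and 41.4 and 45.6 in Dnd1-KD (1.62 ± 0.08, adjusted p = 0.000158), and Lamp1 at 171 and 179 against 314 and 366 (0.95 ± 0.11, adjusted p = 0.00262). Among hydrolases, cathepsin L (Ctsl) went from 100.3 and 105 to 219.5 and 259 (1.21 ± 0.11, adjusted p = 0.00162), and the hexosaminidase alpha subunit Hexa from 20.9 and 24.1 to 51.5 and 64.4 (1.32 ± 0.14, adjusted p = 0.00206). The hydrolase genes named were higher in both Dnd1-KD libraries than in either control library, as was every gene called higher.

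The autophagy genes of the list followed. Sqstm1 (p62), the receptor that carries ubiquitinated cargo, stood at 119 and 132 FPKM in control and 318 and 374 in Dnd1-KD (1.45 ± 0.09, adjusted p = 0.000453). Map1lc3b (LC3B), which coats autophagosomes, stood at 64.0 and 70.2 against 116 and 131 (0.87 ± 0.11, adjusted p = 0.00362), and Atg12, of the conjugation system, at 17.1 and 17.7 against 39.7 and 43.5 (1.21 ± 0.11, adjusted p = 0.00148). Of the transcription factors that drive the set, Tfeb fell (-0.72 ± 0.19, adjusted p = 0.0288, lost without any 1 of the 4 libraries) and Tfe3 did not pass (-0.16 ± 0.08). Families of membrane traffic were grouped by symbol stem, against shares over all tested units of 20.7% higher and 15.5% lower. Of the sorting nexins (Snx) 14 of 28 were higher and 0 lower, of Rab GTPases 21 of 51 were higher and 2 lower. Of Vps genes 11 of 27 were higher and 1 lower. The share higher was near that over all units for Arl GTPases (5 of 22 higher, 4 lower) and Trappc genes (3 of 13 higher, 1 lower). Of the exocyst genes (Exoc) 1 of 10 was higher and 0 lower. Counts with 1 library left out were not made per symbol stem. Snx30 stood at 5.74 and 6.24 against 19.0 and 21.7 (1.61 ± 0.10, adjusted p = 0.000354), and Snx2, of the retromer, at 63.0 and 63.8 against 127 and 137 (1.05 ± 0.06, adjusted p = 0.000292).

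The extracellular matrix was next. Of 31 basement membrane and collagen genes tested, 18 were higher and 3 lower (median 0.44), with 8, 9, 11 and 10 higher when 1 library was left out. The collagen IV chain Col4a2 stood at 5.26 and 5.67 FPKM in control and 27.7 and 24.7 in Dnd1-KD (2.07 ± 0.12, adjusted p = 0.000244). Serpinh1 (HSP47), the collagen chaperone of the ER, stood at 41.7 and 50.7 against 160.3 and 192 (1.91 ± 0.13, adjusted p = 0.000575). Among the list are enzymes that modify collagen. Lysyl hydroxylase Plod2 went from 34.8 and 35.6 to 77.0 and 86.8 (1.19 ± 0.11, adjusted p = 0.00157), prolyl hydroxylase P4ha2 from 6.56 and 6.88 to 15.4 and 17.3 (1.16 ± 0.13, adjusted p = 0.00241) and lysyl oxidase Loxl2 from 5.52 and 5.56 to 13.5 and 14.2 (1.18 ± 0.11, adjusted p = 0.00157). Tenascin C (Tnc), nearly unexpressed in control at 0.676 and 0.88, stood at 4.49 and 4.08 in Dnd1-KD (1.57 ± 0.25, adjusted p = 0.0066). The 3 members that fell were Col18a1, the collagen of endostatin, from 97.9 and 94.5 to 60.2 and 44.4 (-0.88 ± 0.15, adjusted p = 0.00745; lost without the first control library), agrin (Agrn; -0.68 ± 0.16, lost without the first control, the second control or the second Dnd1-KD library) and nidogen 2 (Nid2), from 79.6 and 81.2 to 56.5 and 51.8 (-0.56 ± 0.08, adjusted p = 0.00486). Laminin Lama1 did not pass (-0.23 ± 0.14). The fibrillar collagens of fibroblasts were at low levels, with Col1a1 at 3.04 and 3.58 and 4.71 and 4.81. The part of the fibroblast and endoderm markers, whose sums are given above, in the matrix result was not tested.

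Actin cytoskeleton genes and YAP and TEAD targets were both mixed with an excess of rises. Of the 24 actin and SRF genes, 13 were higher and 4 lower (median 0.46), and with 1 library left out 4, 7, 8 and 5 were higher. The alpha-actinin Actn1 went from 112 and 105 to 172 and 173 (0.66 ± 0.07, adjusted p = 0.00213) and tropomyosin Tpm1 from 409.7 and 407 to 614 and 766 (0.75 ± 0.11, adjusted p = 0.00569), whereas the myosin light chain Myl9 fell from 16.8 and 17.9 to 9.32 and 9.47 (-0.82 ± 0.08, adjusted p = 0.00206). Of 22 YAP and TEAD targets, 12 were higher and 4 lower (median 0.46; 6, 7, 7 and 6 higher with 1 library left out). Crim1, a BMP-binding membrane protein, stood at 3.15 and 3.73 against 11.7 and 12.3 (1.55 ± 0.10, adjusted p = 0.000471), and the ligand Tgfb2 at 2.44 and 2.43 against 7.13 and 9.38 (1.42 ± 0.22, adjusted p = 0.00604). Among the falls of the same list, the IGF-binding protein Igfbp3 went from 86.0 and 87.5 to 29.3 and 30.2 (-1.51 ± 0.24, adjusted p = 0.00637) and the ectonucleotidase Nt5e from 5.72 and 6.61 to 1.24 and 0.917 (-1.79 ± 0.14, adjusted p = 0.000934).

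Factors of the epithelial to mesenchymal transition (EMT) were higher where called. Of 12 listed, 10 were tested, 8 were higher and 0 lower (median 0.62), and leaving out 1 library gave 2, 5, 6 and 4 higher. Vimentin (Vim), the mesenchymal intermediate filament and the most abundant member, stood at 112 and 132 FPKM in control and 295 and 309 in Dnd1-KD (1.30 ± 0.15, adjusted p = 0.00269). N-cadherin (Cdh2) stood at 8.06 and 8.91 FPKM in control and 22.5 and 19.1 in Dnd1-KD (1.20 ± 0.17, adjusted p = 0.00486). The transcription factor Zeb2 was at 0.587 and 0.684 against 2.42 and 2.54 (1.09 ± 0.18, adjusted p = 0.00743), a call lost without the first control library. Epithelial genes did not fall as a group: 10 of 25 were higher and 4 lower (median 0.22), with 3, 5, 8 and 4 higher when 1 library was left out. E-cadherin (Cdh1) stood at 149 and 151 against 129 and 122 (-0.25 ± 0.06, adjusted p = 0.0265), a call lost without the first control, the second control or the second Dnd1-KD library, while the desmosomal Dsc2 rose from 5.03 and 5.48 to 10.6 and 11.5 (0.94 ± 0.14, adjusted p = 0.00522). The splicing regulator Esrp2 was at 5.12 and 5.40 in control and listed at 0 in both Dnd1-KD libraries.

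WNT targets fell where they passed the test. Of 15 listed, 13 were tested, 0 were higher and 6 lower, with a median of -0.84, and leaving out 1 library gave 4, 4, 5 and 4 lower. Sp5, a transcription factor gene that beta-catenin activates directly, is shown because its promoter, at chr2:70474673-70474922 (+), holds a TCF site, CTTTGAT on either strand.
Sp5: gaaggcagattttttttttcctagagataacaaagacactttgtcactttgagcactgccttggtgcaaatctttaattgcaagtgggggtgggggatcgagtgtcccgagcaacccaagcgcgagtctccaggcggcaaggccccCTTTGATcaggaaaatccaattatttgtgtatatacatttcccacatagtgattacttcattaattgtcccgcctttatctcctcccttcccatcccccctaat
The TCF site was found in promoters of 1160 of 27025 genes (4.29%) and of 2 of the 8 tested members with a promoter entry, Sp5 and Tnfrsf19, both lower. Sp5 stood at 16.9 and 21.6 FPKM in control and 3.62 and 2.69 in Dnd1-KD (-2.28 ± 0.16, adjusted p = 0.000623), a ratio of means of 6.09 in favour of control. Lef1, a TCF family factor, stood at 8.54 and 7.50 against 2.76 and 2.69 (-1.27 ± 0.11, adjusted p = 0.00134), and the homeobox gene Cdx2 at 3.80 and 3.79 against 1.54 and 1.16 (-1.03 ± 0.16, adjusted p = 0.00584). The feedback gene Axin2 went from 10.2 and 8.98 to 4.80 and 4.59 (-0.89 ± 0.21, adjusted p = 0.0204), a call lost without any 1 of the 4 libraries. Tcf7, Znrf3, Lgr5, Apcdd1 and Nkd1 did not pass, with differences between -0.13 ± 0.13 for Tcf7 and 0.16 ± 0.16 for Nkd1.

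FGF feedback genes were mostly lower. Of 17 tested, 1 was higher and 11 were lower (median -0.41), and leaving out 1 library gave 3, 3, 5 and 3 lower. The ETS factor Etv5, an ERK target that is abundant in ES cells, stood at 140.4 and 141 FPKM in control and 63.3 and 52.4 in Dnd1-KD (-1.27 ± 0.09, adjusted p = 0.000721). Etv1 went from 5.12 and 4.58 to 2.63 and 2.43 (-0.73 ± 0.10, adjusted p = 0.00388), and the inhibitor Spry4 from 23.8 and 21.4 to 12.2 and 9.15 (-1.03 ± 0.15, adjusted p = 0.00505). The phosphatase Dusp6 and the inhibitor Spry2 were also lower (-0.66 ± 0.18 and -0.82 ± 0.22), but both lost their calls without any 1 of the 4 libraries. The ligand Fgf4 did not pass (-0.41 ± 0.24, adjusted p = 0.235).

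LIF signals through the receptor pair of LIFR and gp130 to JAK1 and STAT3. The receptor side was split: gp130 (Il6st) rose (0.58 ± 0.13, adjusted p = 0.0174), as did Jak1, from 12.9 and 13.0 to 25.7 and 27.0 FPKM (0.97 ± 0.09, adjusted p = 0.00148), Stat3 did not pass (0.03 ± 0.07) and Lifr was lower (-0.36 ± 0.09, adjusted p = 0.0248). The targets were lower. Socs3, the feedback inhibitor, went from 24.99 and 24.6 to 15.4 and 10.6 (-0.90 ± 0.18, adjusted p = 0.0134), and the kinase Pim3 from 64.9 and 65.8 to 45.9 and 41.7 (-0.57 ± 0.08, adjusted p = 0.00476). Over the list, 10 of 13 were lower and 2 higher (median -0.53), and leaving out 1 library gave 2, 2, 7 and 5 lower. The calls of Il6st and Lifr were lost without any 1 of the 4 libraries, and that of Socs3 without the first control, the second control or the second Dnd1-KD library.

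In the NODAL and SMAD2/3 pathway 6 of 20 units were higher and 3 lower (median -0.21; 4, 3, 5 and 4 higher with 1 library left out). The NODAL antagonists Lefty1 and Lefty2, joined in 1 unit, stood at 50.8 and 55.1 FPKM in control and 14.0 and 8.08 in Dnd1-KD (-2.21 ± 0.26, adjusted p = 0.0028). Smad4, the shared mediator, rose from 29.1 and 29.6 to 43.7 and 42.7 (0.54 ± 0.08, adjusted p = 0.00505), and Furin, which processes the ligand, from 6.13 and 6.85 to 12.2 and 11.7 (0.79 ± 0.11, adjusted p = 0.00434). Nodal itself did not pass (-0.31 ± 0.17, adjusted p = 0.213). Of 15 BMP pathway genes, 6 were higher and 1 lower (median 0.28; 2, 2, 4 and 3 higher with 1 library left out). The receptor Bmpr2 rose from 3.66 and 3.65 to 8.07 and 8.63 (1.01 ± 0.13, adjusted p = 0.00336). The target genes Id1, Id2 and Id3 differed by -0.20 ± 0.41, -0.17 ± 0.30 and 0.05 ± 0.43 and did not pass.

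**Figure D3:**
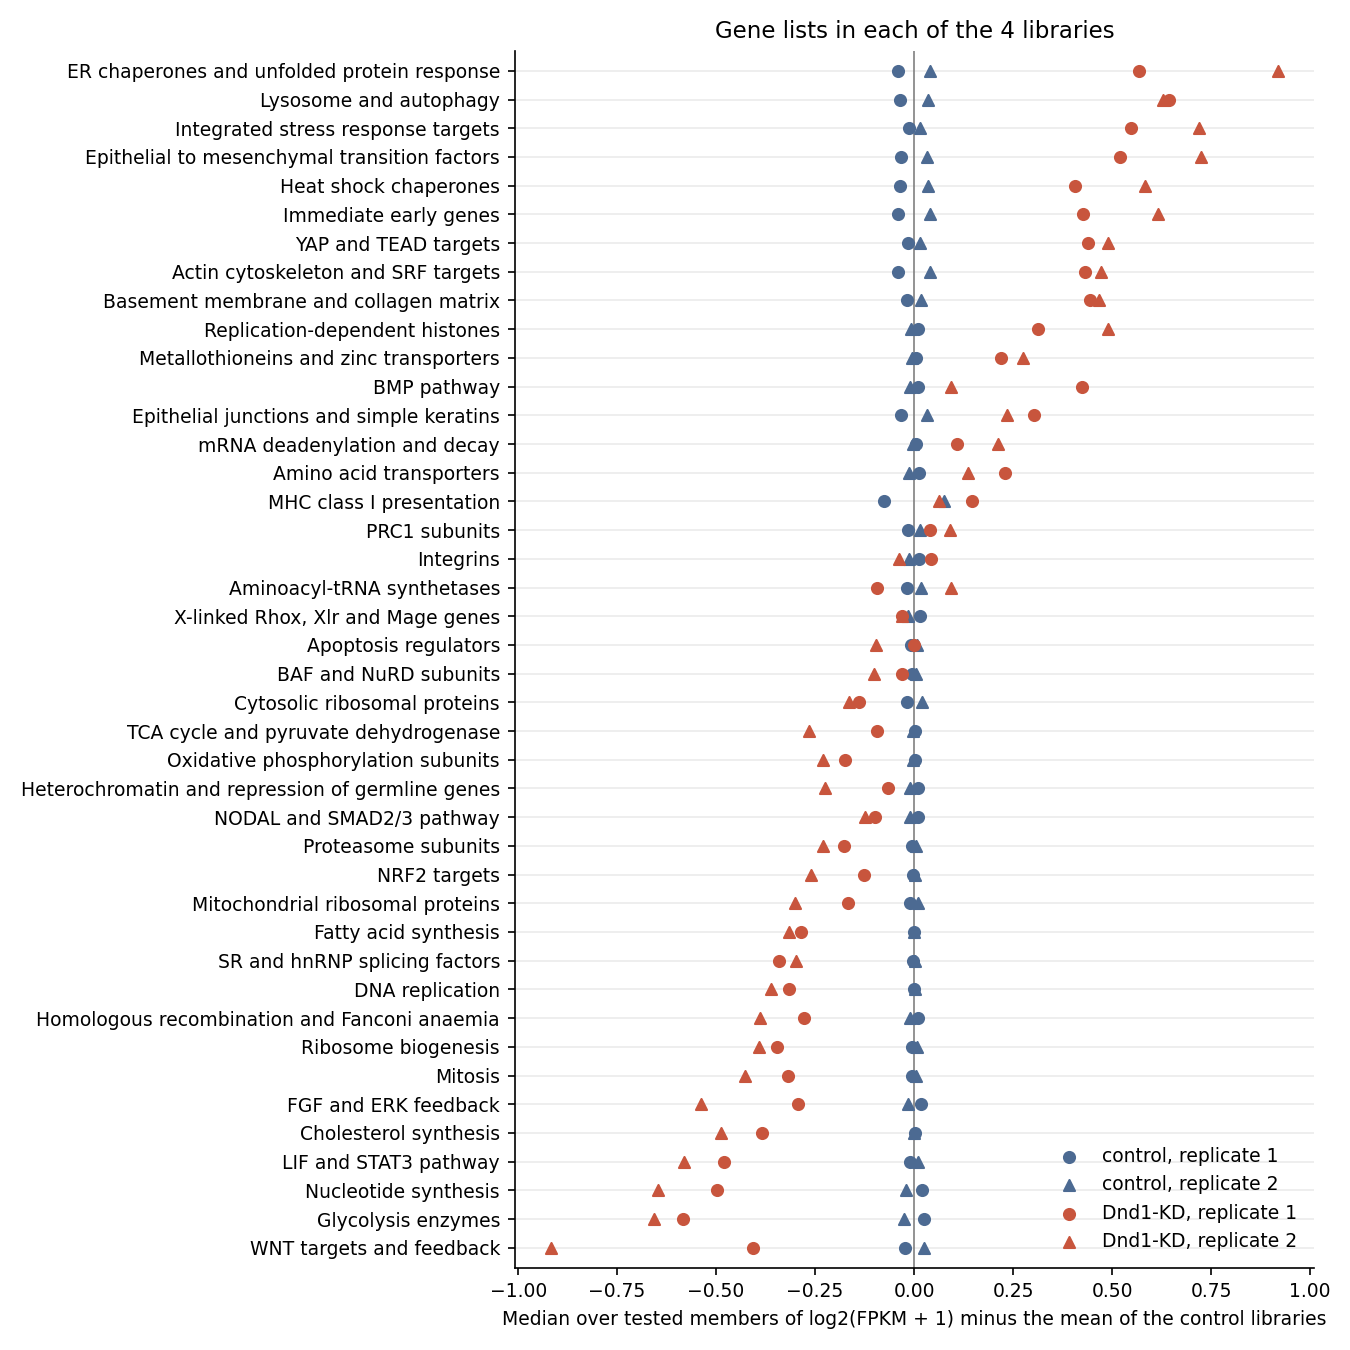
Median over the tested members of each list of log2(FPKM + 1) minus the mean of the control libraries, for each of the 4 libraries. The control points lie near 0 and both Dnd1-KD points fall on the same side for most lists, while the BMP list has unequal Dnd1-KD medians of 0.42 and 0.09.

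Enzymes of central metabolism were lower in most lists where called. Of 23 glycolysis genes, 14 were lower and 2 higher (median -0.63; 9, 9, 15 and 9 lower with 1 library left out). Phosphofructokinase Pfkm stood at 15.8 and 13.2 FPKM in control and 5.72 and 5.33 in Dnd1-KD (-1.24 ± 0.16, adjusted p = 0.00325), and the lactate exporter Slc16a3 at 35.7 and 33.4 against 12.8 and 10.6 (-1.49 ± 0.24, adjusted p = 0.00633). Pyruvate kinase Pkm went from 1438 and 1507 to 969 and 934 (-0.63 ± 0.08, adjusted p = 0.00295), a call lost under quantile normalization. Glucose transporters did not pass the test (Slc2a1 -0.39 ± 0.18, Slc2a3 0.04 ± 0.14).

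Nucleotide synthesis genes were lower in most of the list: 16 of 22 were lower and 0 higher (median -0.56), and 9, 10, 12 and 9 were lower with 1 library left out. In the pyrimidine branch, UMP synthase Umps stood at 98.0 and 104 FPKM in control and 40.4 and 39.7 in Dnd1-KD (-1.31 ± 0.06, adjusted p = 0.000123). In the purine branch, Pfas stood at 33.3 and 31.3 against 17.7 and 13.9 (-0.99 ± 0.12, adjusted p = 0.00279), and the trifunctional enzyme Gart at 178 and 172 against 99.1 and 85.0 (-0.93 ± 0.08, adjusted p = 0.00154). The ribonucleotide reductase subunits, which make deoxynucleotides, fell together: Rrm1 from 58.8 and 58.1 to 41.4 and 36.9 (-0.57 ± 0.08, adjusted p = 0.00384) and Rrm2 from 138 and 140.1 to 97.2 and 88.2 (-0.58 ± 0.08, adjusted p = 0.00448). Thymidylate synthase Tyms did not pass (1.05 ± 0.74).

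Lipid synthesis was lower by small steps. Of 24 cholesterol genes, 11 were lower and 1 higher (median -0.46), but leaving out 1 library gave 0, 1, 4 and 0 lower. The isomerase Idi1 went from 42.0 and 39.5 to 20.5 and 19.1 FPKM (-1.004 ± 0.17, adjusted p = 0.00829; lost without the first control or the second Dnd1-KD library) and squalene epoxidase Sqle from 30.5 and 30.7 to 18.7 and 17.4 (-0.73 ± 0.17, adjusted p = 0.0203; lost without any 1 of the 4 libraries). Of 13 fatty acid synthesis genes, 6 were lower and 0 higher (median -0.30), with 0, 1, 4 and 1 lower when 1 library was left out.

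In the TCA cycle, 8 of 22 genes were lower and 1 was higher (median -0.15; 4, 4, 8 and 6 lower with 1 library left out). Isocitrate dehydrogenase subunit Idh3g went from 72.5 and 73.1 to 45.1 and 39.6 FPKM (-0.77 ± 0.09, adjusted p = 0.00248), whereas citrate synthase Cs differed by 0.02 ± 0.13 and did not pass. Of 75 nuclear genes of oxidative phosphorylation, 23 were lower and 2 higher (median -0.19), with 2, 4, 15 and 3 lower when 1 library was left out. This list depended on scaling, with 11 lower and 6 higher after quantile normalization.

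The translation machinery was lower at the level of ribosome assembly. Of 32 ribosome biogenesis genes, 19 were lower and 0 higher (median -0.37; 11, 8, 14 and 11 lower with 1 library left out). Treacle (Tcof1), a nucleolar factor for ribosomal RNA transcription, stood at 69.8 and 69.5 FPKM in control and 39.0 and 33.5 in Dnd1-KD (-0.93 ± 0.08, adjusted p = 0.00148). The H/ACA protein Nhp2 stood at 281 and 291 against 172 and 175 (-0.72 ± 0.09, adjusted p = 0.00284), and nucleolin (Ncl) at 386 and 384 against 264 and 273 (-0.52 ± 0.05, adjusted p = 0.00209). Cytosolic ribosomal proteins differed less, apart from Rps15a below: 19 of 84 were lower and 1 higher (median -0.14, 2, 2, 7 and 1 lower with 1 library left out), but 5 lower and 6 higher after quantile normalization, so the direction of this family rests on the scaling. Mitochondrial ribosomal proteins had 26 of 76 lower and 3 higher (median -0.23, 5, 6, 23 and 9 lower with 1 library left out), and 5 tested members had a library at 0.

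Aminoacyl-tRNA synthetases had calls in both directions (4 of 20 higher, 3 lower, median 0.03; 2, 2, 4 and 2 higher with 1 library left out). Both shares were near those over all tested units, 20.7% higher and 15.5% lower. The seryl enzyme Sars stood apart at 43.3 and 44.4 FPKM in control and 140.3 and 153 in Dnd1-KD (1.72 ± 0.11, adjusted p = 0.000391). Kars, the lysyl enzyme, fell from 166 and 171 to 119 and 113 (-0.54 ± 0.05, adjusted p = 0.00187). SR proteins and hnRNPs, the splicing regulators, were lower in 19 of 30 units and higher in 1 (median -0.32), with 4, 6, 9 and 8 lower when 1 library was left out and 10 after quantile normalization. Hnrnpu went from 429.8 and 446 to 321 and 322 (-0.45 ± 0.06, adjusted p = 0.00332). Proteasome subunits were lower in 12 of 42 units and higher in 1 (median -0.21), with 0, 3, 7 and 1 lower when 1 library was left out and 4 lower and 2 higher after quantile normalization. DND1 is known to recruit the CCR4-NOT deadenylase, and of 32 deadenylation and decay genes 3 were higher and 2 lower (1, 1, 3 and 2 higher and 0, 0, 1 and 0 lower with 1 library left out). These shares of 9.38% higher and 6.25% lower were below the 20.7% and 15.5% over all tested units. The higher ones were Btg1, from 6.40 and 6.66 to 15.8 and 16.8 (1.20 ± 0.11, adjusted p = 0.00164), Tob1 and Cnot4. The lower ones were joint units with Cnot3 and Zfp36l2.

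Genes of DNA replication, mitosis and repair were mostly lower where called. Of 40 DNA replication genes, 21 were lower and 1 was higher (median -0.34; 6, 8, 18 and 9 lower with 1 library left out). The sliding clamp Pcna stood at 382 and 378 FPKM in control and 264 and 260.3 in Dnd1-KD (-0.53 ± 0.06, adjusted p = 0.00209), and DNA ligase Lig1 at 85.6 and 86.7 against 51.9 and 45.2 (-0.82 ± 0.08, adjusted p = 0.00167). Of 28 mitosis genes, 17 were lower and 0 higher (median -0.40; 5, 7, 15 and 9 lower with 1 library left out). The kinase Plk1 went from 74.3 and 77.4 to 45.4 and 42.1 (-0.78 ± 0.08, adjusted p = 0.00178) and cyclin A2 (Ccna2) from 82.4 and 79.4 to 53.8 and 50.2 (-0.63 ± 0.07, adjusted p = 0.00238). Homologous recombination and Fanconi anaemia genes were lower in 13 of 28 units and higher in 0 (median -0.35; 3, 3, 11 and 5 lower with 1 library left out). The recombination genes Xrcc3 and Rad51c fell the most of those called: Xrcc3 from 9.17 and 10.1 to 2.20 and 2.47 (-1.67 ± 0.18, adjusted p = 0.00224) and Rad51c from 6.82 and 6.96 to 3.28 and 2.53 (-1.02 ± 0.13, adjusted p = 0.00351).

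Replication-dependent histone genes were mostly higher. Of 67 listed, 52 units were tested, 29 were higher and 1 lower (median 0.37), with 12, 12, 20 and 16 higher when 1 library was left out. Their messages mostly end in a stem-loop without a poly(A) tail, and their levels were low in all 4 libraries. Hist1h2bc stood at 5.62 and 4.89 FPKM in control and 12.2 and 13.1 in Dnd1-KD (1.13 ± 0.16, adjusted p = 0.0045), and the joint unit of the linker histones Hist1h1c and Hist1h1d at 3.25 and 2.62 against 8.48 and 8.32 (1.26 ± 0.12, adjusted p = 0.00157). Near-identical copies share reads, so values of single histone genes are uncertain.

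Chromatin regulators had no common direction. Among heterochromatin genes, 7 of 26 were lower and 4 higher, and leaving out 1 library gave 2, 1, 7 and 3 lower and 0, 1, 3 and 1 higher. The maintenance methylation factor Uhrf1 fell from 105 and 102 to 59.4 and 50.8 FPKM (-0.90 ± 0.09, adjusted p = 0.00175). In PRC1, the Polycomb complex that ubiquitinates H2A, 5 of 18 were higher and 4 lower (1, 3, 4 and 3 higher and 1, 2, 4 and 1 lower with 1 library left out): Pcgf2 (Mel18) fell from 79.9 and 69.7 to 28.2 and 25.3 (-1.45 ± 0.19, adjusted p = 0.00369), while Phc3 rose from 1.94 and 1.90 to 4.25 and 5.12 (0.96 ± 0.11, adjusted p = 0.00283). In the BAF and NuRD complexes 5 of 28 were higher and 7 lower (0, 0, 1 and 1 higher and 2, 2, 5 and 1 lower with 1 library left out), with the NuRD subunit Mbd3 at 166 and 196 against 88.0 and 90.6 (-1.01 ± 0.10, adjusted p = 0.00187). Of 57 X-linked Rhox, Xlr and Mage genes, 11 units were tested and Mageb16 alone was called, lower, from 35.3 and 33.3 to 19.6 and 18.8 (-0.81 ± 0.12, adjusted p = 0.00512).

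The largest rises and falls are given for called units of 1 symbol with no library at 0, where the higher group averaged 5 FPKM or more. Symbols starting with Gm, AI, AW, BC, LOC, Mir or n-R, or ending in Rik, were left out. The 15 largest rises were Acta2, AU041133, Stmn4, Gadd45g, Serinc3, Nupr1, Col4a2, Herpud1, Ptgs2, Bhlhe41, Lhfp, Dnajb9, Col4a1, Serpinh1 and Filip1l. Stmn4, a stathmin of neurons, stood at 3.77 and 4.53 FPKM in control and 22.1 and 23.3 in Dnd1-KD (2.21 ± 0.14, adjusted p = 0.000379). Ptgs2, the inducible cyclooxygenase, stood at 0.947 and 1.02 against 5.99 and 8.16 (2.01 ± 0.25, adjusted p = 0.00319), and Filip1l at 0.736 and 1.02 against 6.06 and 5.90 (1.90 ± 0.18, adjusted p = 0.00157). In the neural marker list, of which Stmn4 is no member, 1 of 6 tested was higher, Pax3, and 1 lower, Map2, whose call was lost without any 1 of the 4 libraries. The call of Nupr1 is limited as given above.

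The 15 largest falls included Rps15a, T, Hnrnpr, Glrx2, Anp32a, Rasgrp2, Pfdn1, Clca4a, Sp5, Xpo7, Polr3k, Ltb, Bcat1 and Ssr1. Ltb, a cytokine of the TNF family, stood at 13.5 and 14.3 FPKM in control and 2.93 and 2.91 in Dnd1-KD (-1.93 ± 0.14, adjusted p = 0.000686). Rps15a, a protein of the small ribosomal subunit at chr7:118104375-118116191 (mm10) in the first control library, was listed at 1857 and 1828 in control and 94.4 and 94.5 in Dnd1-KD (-4.27 ± 0.13, adjusted p = 1.68e-05), while the CDGC1 libraries had 93.8 and 109 and the CDGC6 libraries 91.1 and 119. Its entry ended at 118116191 and 118116189 in the control libraries and at 118116147 in both Dnd1-KD libraries. The prefoldin gene Pfdn1 had the same pattern, at 432 and 440.5 against 82.8 and 87.3 (-2.35 ± 0.07, adjusted p = 1.53e-05), with 85.7 to 96.8 in the CDGC1 and CDGC6 libraries. The calls of Glrx2, Xpo7 and Bcat1 were lost without any 1 of the 4 libraries, and that of Clca4a without the first control or the second control library.

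The interval that the file gives with each value, which narrows as fragments increase, was set beside these changes. For Rps15a its half-width was 4.29% and 4.51% of the value in control and 4.30% and 4.52% in Dnd1-KD, so that values far apart had the same relative precision. Widths also stayed near this level in some rises. For Col4a1 they were 5.2% and 4.17% in control and 4.41% and 4.81% in Dnd1-KD. For T the half-width grew from 6.07% and 6.44% to 15.3% and 21.8%, as its value fell. The fragments implied by these widths gave a log2 difference more than 1 away from that of FPKM in 12 of the 15 falls, with the opposite sign in 9 and with entry bounds that differed among the 4 libraries in 10. T, Sp5 and Ltb were within 1. Among the 15 rises, 7 were more than 1 away (Acta2, AU041133, Col4a1, Col4a2, Lhfp, Serinc3 and Serpinh1), 1 had the opposite sign, AU041133, and 4 had differing bounds. Over all 11532 tested units above 0 in the 4 libraries the share more than 1 away was 14.9%, against 27.2% of the 313 rises and 42.6% of the 141 falls of at least 2-fold. Genes named in earlier paragraphs were among them. In FPKM and implied fragments, Hspa5 differed by 1.32 and -8.50, Slc16a3 by -1.57 and 1.95 and Igfbp3 by -1.54 and 0.63. Spry4 of the FGF list differed by -1.10 and -28.7. Atf3, Loxl2, Slc39a10, Sqstm1, Sars, Jun and Mdm2 were also more than 1 away. So were Ctsl, Ppp1r15a, Snx30, Nt5e, Pcgf2, Xrcc3, Zeb2 and Tnc, and not every such gene is named. Dnajb9, Trib3, Umps and Etv5 were within 1. Where the width barely moves with the value, the implied number cannot follow a change in either direction. It can also be far off for genes with several isoforms. A gap over 1 is therefore a description and does not show which value is right. The part of isoform assignment by the authors' software in these values was not tested.

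**Figure D4:**
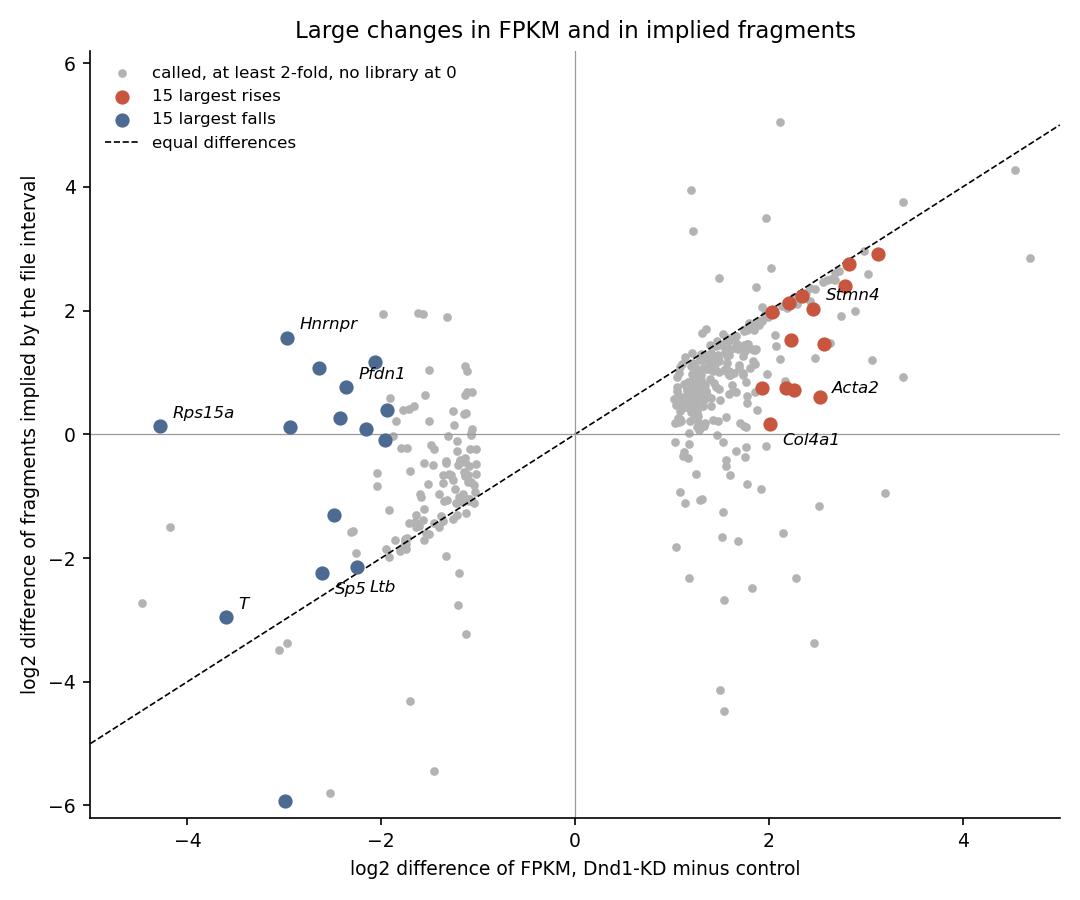
Difference in FPKM (x axis, log2) against the difference in fragments implied by the file's interval (y axis, log2) for 454 units called at 2-fold or more with no library at 0, of which 20 beyond 6 in either direction are not drawn. Points on the dashed line have equal differences, as T, Sp5, Ltb and Stmn4 nearly do, while Rps15a, Hnrnpr and Pfdn1 lie at large falls in FPKM near or above 0 on the y axis.

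The fit was also repeated over the 9809 units with both differences within 1 of each other, an alternative chosen after the data were seen, in which a member can gain or lose a call. It carries the limit of the implied number given above. There 21.7% of units were higher and 15.9% lower. Of 21 such ER genes 17 were higher and 0 lower, of 26 lysosome and autophagy genes 16 were higher and 1 lower, and of 47 histone units 29 were higher and 1 lower. Of 18 nucleotide synthesis genes 14 were lower and 0 higher, of 14 glycolysis genes 9 were lower and 3 higher, and of 15 FGF feedback genes 10 were lower and 1 higher. Of 13 WNT targets 7 were lower and 0 higher.

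Exact zeros made up most of the changes of 4-fold or more: 80 of these 102 units had a library at 0. In all, 353 tested units had a zero in at least 1 of the 4 libraries, and 98 of them were called. Of the 353, 64.9% overlapped another gene, against 39.5% of all tested units, so a zero there can be a failed estimate. Among units listed at 0 in both control libraries, Ube2e1, a ubiquitin-conjugating enzyme, was at 37.1 and 38.3 FPKM in Dnd1-KD, and Fxr2, an RNA-binding paralogue of the fragile X protein, at 82.0 and 81.2. Listed at 0 in both Dnd1-KD libraries were the mitochondrial ribosomal gene Mrpl18, at 135 and 153 in control, and Qtrt1, of tRNA queuosine synthesis, at 29.8 and 30.2. Ube2e1 and Mrpl18 overlap another gene, whereas Fxr2 and Qtrt1 do not. The calls of Fxr2 and Mrpl18 were lost without any 1 of the 4 libraries, and also without either CDGC6 library. No ratio of means was computed for these genes, but their differences on log2(FPKM + 1) entered the counts of 2-fold and 4-fold changes. Without units at 0, the rises and falls of at least 2-fold numbered 313 and 141.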

How the data were processed

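RNA-seq libraries (RNeasy extraction, TruSeq RNA v2, per the labels' protocols) gave 1 gene table per library with FPKM and its interval; these FPKM values were made by the authors, and the submitters' processing notes name TopHat2, Bowtie, Cufflinks, Cuffdiff and the mouse build mm10, with no version. FPKM was summed per gene symbol here, and symbols sharing an entry were joined. Entries without a name held 82.8% to 85.2% of the summed FPKM in the 4 libraries and were left out, as were the mitochondrially encoded genes, for which no named entry was found. The intervals imply 10.7e6 to 18.0e6 fragments per library; exact depth is unknown. A unit was kept where 2 or more of the 8 libraries reached 1 FPKM, and tested on log2(FPKM + 1) with limma 3.58.1 (R 4.3.3), all 4 groups in 1 fit with trended variance, checked on simulated data. Tables used pandas 2.3.3 and numpy 2.4.6, and figures matplotlib 3.10.9. Alternatives changed the pseudocount, filter, scaling, variance, block and libraries. Promoters and motifs came from RefSeq (GRCm38.p6).

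Named genes are the 15 largest rises and 15 largest falls among called single-symbol units with no zero and a mean of at least 5 FPKM, up to 3 rises and 3 falls per list by smallest p with its most abundant member, the 5 highest zero-listed units each way, and 2 per symbol stem. Members and lists were chosen with earlier results of these data known. The results of some genes are not reported here. These further genes were chosen after their values were seen: Asns, Atf3, Atf6, Atg12, Axin2, Bag3, Btg2, Chac1, Col1a1, Cryab, Cs, Ctsl, Derl1, Dnajc3, Dusp6, Edem1, Egr1, Eif2ak3, Ern1, Esrp2, Fgf4, Hexa, Hsp90aa1, Hsp90ab1, Id2, Id3, Lama1, Lifr, Loxl2, Map1lc3b, Nhp2, Nkd1, Nodal, P4ha2, Pfas, Pfkm, Phgdh, Pkm, Plod2, Ppp1r15a, Psat1, Rrm1, Rrm2, Slc16a3, Slc2a1, Slc2a3, Socs3, Spry2, Stat3, Syvn1, Tfe3, Tgfb2, Tkt, Tnc, Tpm1, Trib3, Tyms, Zeb2, H2-K1, Tap1, Cdkn1a, Mdm2, Ccng1 and Derl3.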

Additional observations from a re-analysis of the deposited data

How the results depend on the processing

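Of 362 named genes, 322 were called. Calls lost numbered 122 with the controls averaged as 1 sample, 19 under quantile normalization, 8 under median-ratio scaling, 13 without a filter, 8 with a replicate block, 197 at a 2-fold minimum, 131 and 120 without the first and second control library, and 48 and 104 without the first and second Dnd1-KD library. The sign turned only for Atp5b, to 0.022 under quantile normalization (adjusted p = 0.833). With the controls averaged, 1466 units were called, 892 higher and 574 lower, and at a 2-fold minimum 549, 363 higher and 186 lower. An alternative added after the data were seen kept only the 7389 units whose entry bounds were equal in the 4 libraries. Of these, 1619 were higher and 1300 lower, against 2463 and 1845 of 11890 in the main fit. Of 1188 tested members of gene lists, those called numbered 595 (263 higher, 332 lower), 233 with the controls averaged (126 and 107) and 115 at 2-fold (78 and 37). Over all tested units the share called was 36.2%. Units grouped only by symbol stem are not in this count. Leaving out 1 library gave 1365 to 4927 units called, 834 to 2789 higher and 531 to 2138 lower, and 213 to 630 list members, 115 to 275 higher and 98 to 355 lower. The lowest chromosome median was -0.13, on chromosome X, for units of 1 symbol with at least 5 FPKM in all 4 libraries. Across replicate numbers, the correlation of deviations was 0.12 between control and Dnd1-KD, the largest value, and between -0.06 and 0.02 for the other group pairs. The replicate block gave 3921 units, 2260 higher and 1661 lower. Control and Dnd1-KD were also similar by replicate number in implied fragments, 18008634 and 17655861 for replicate 1 against 12575206 and 10696336 for replicate 2. Entries at 0 made up 17.7% and 17.7% in replicate 1 and 22.2% and 22.1% in replicate 2. Whether libraries of these groups were handled as pairs was not tested. Read counts are not given in these files, so depth limits the precision of low genes by an unknown amount.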

Other observations

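Antigen presentation genes were split. The MHC class I light chain B2m stood at 37.2 and 41.4 FPKM in the control libraries and 80.9 and 95.7 in the Dnd1-KD libraries (difference 1.15 ± 0.11, adjusted p = 0.00157 by limma), and the heavy chain H2-K1 at 23.0 and 25.7 against 37.6 and 44.1 (0.72 ± 0.20, adjusted p = 0.034, lost without any 1 of the 4 libraries). The peptide transporter Tap1 did not pass (0.10 ± 0.23). Over the list, 4 of 11 tested units were higher and 1 lower (median 0.10), and 2 of the higher ones, Pdia3 and the joint unit of Calr, are also ER chaperones. Among amino acid transporters, 9 of 23 were higher and 3 lower. Slc7a7, which exports cationic amino acids, fell from 69.0 and 64.8 to 32.9 and 29.5 (-1.08 ± 0.14, adjusted p = 0.00348), and Slc1a4, a transporter of alanine, serine and cysteine, rose from 5.45 and 5.62 to 9.09 and 9.81 (0.68 ± 0.08, adjusted p = 0.00251). Of 22 integrins, 14 were tested, 4 were higher and 3 lower.

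Grouped by symbol stem, nucleoporins (Nup) had 10 of 19 members lower and 0 higher, against 15.5% lower and 20.7% higher over all tested units. Nup85, of the pore's scaffold, stood at 84.3 and 83.8 FPKM in control and 50.4 and 49.0 in Dnd1-KD (-0.75 ± 0.10, adjusted p = 0.00348). RNA polymerase subunits (Polr) had 12 of 27 lower and 2 higher, with Polr2h at 110.2 and 94.0 against 52.3 and 52.2 (-0.95 ± 0.10, adjusted p = 0.00194), and inner membrane translocases (Timm) had 6 of 14 lower and 0 higher. Over chromosomes with at least 100 tested units, the median difference ran from -0.03 on chromosome X to 0.09 on chromosome 3. On chromosome X 71 of 429 units were higher and 78 lower, and on chromosome 3 142 of 559 were higher and 72 lower. For units of 1 symbol with at least 5 FPKM in all 4 libraries, the median was -0.133 on chromosome X. The next lowest was -0.061, on chromosome 17.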
